A study of Mus musculus with 4 samples.

Results

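mmu-miR-10a and mmu-miR-10b (miR-10a and miR-10b below) are paralogous mouse miRNAs whose genes lie inside the Hox clusters, and their probes were taken by exact name from a miRNA array, giving 2 of its 700 miRNA probes. They were measured in HC11 cells, a clonal line of mouse mammary epithelium that keeps traits of stem cells, at 2 stages with 2 samples each. The differentiated cells were held for 48 h in 2% serum without epidermal growth factor and then received 100 nM dexamethasone, a glucocorticoid, and 1 µg/mL ovine prolactin for 72 h. The proliferating cells stayed in 10% serum with epidermal growth factor and were collected after 48 h. The line was grown with L-glutamine, insulin and gentamicin, and no genotype or transgene is named in the labels. Total RNA was hybridised on 2-colour arrays with the dyes swapped: the differentiated sample carried Cy5 on array 1 and Cy3 on array 2, and the proliferating sample of the same number carried the other dye. Whether samples of a stage were separate cultures is not stated, and every title carries the tag repx3, which the labels do not explain, so the spread between samples may be technical or may be that of pooled or repeated material. With 2 arrays, the precision of each value is limited by their number. Both miRNAs were chosen by their measured levels and log2 ratios between these stages, so those values are given below as a description without a test.

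A miRNA guides an Argonaute protein to transcripts that pair with its seed, the bases near its 5′ end, and lowers their output. The miR-10 genes sit among Hox genes, which set positional identity along the body axis, and Hox transcripts are among the known targets of the family. In human breast cancer cells miR-10b is known for promoting invasion, and in mouse cells miR-10a is known to bind transcripts of ribosomal proteins.

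The mature sequences of both members are shown because a single base separates the 2 probes. They are followed by 3 close relatives that share a seed among themselves, and by the passenger strands of both hairpins. All are the array's target sequences, 5′ to 3′, each identical to a RefSeq mature miRNA of GRCm38.p6, with the seed (bases 2 to 8) in capitals.
miR-10a: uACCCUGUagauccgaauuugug
miR-10b: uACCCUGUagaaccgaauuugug
miR-100: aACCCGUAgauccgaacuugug
miR-99a: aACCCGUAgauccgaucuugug
miR-99b: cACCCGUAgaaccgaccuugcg
miR-10a*: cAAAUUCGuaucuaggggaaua
miR-10b*: cAGAUUCGauucuaggggaaua

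miR-10a and miR-10b have 23 bases each and differ by the single substitution U12A, counted from the 5′ end of miR-10a, so the seed is shared and no other probe on the array carries it. The mature miR-10a sequence lies at chr11:96317186-96317208 on the plus strand, inside the span of Hoxb3 and between Hoxb5 and Hoxb4. miR-10b lies at chr2:74726074-74726096 on the plus strand, inside the spans of Hoxd3 and Hoxd4. The seed of miR-99a, miR-99b and miR-100 is different, but their sequences are 4, 6 and 3 edits from miR-10a. miR-100 shares a run of 11 bases with miR-10a, as long as the longest run that miR-10a shares with miR-10b.

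Each miRNA was printed in 5 spots, and 180 empty spots gave the level without a probe. A spot counted as over the limit when its intensity above the local background exceeded that of the empty spots, taken as their mean plus 3 SDs, and a probe counted as detected with at least 3 such spots. This limit was 7.75 and 157 intensity units over background in differentiated replicates 1 and 2, and 13.2 and 53.7 units in proliferating replicates 1 and 2. By this rule 187 and 165 of the 700 probes were detected in the differentiated samples, against 203 and 138 in the proliferating samples. Only 1 of the 2 members, miR-10a, was detected, and it was detected in all 4 samples.

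For miR-10a the 5 spots averaged 129 and 850.1 units over background in differentiated replicates 1 and 2, against 28.1 and 81.0 units in proliferating replicates 1 and 2. All 5 spots were over the limit in both differentiated samples and in proliferating replicate 1, and 4 of 5 in proliferating replicate 2. Both differentiated samples were above both proliferating ones, as they were for 40.1% of the 172 probes detected in both samples of either stage, and these values still carry the gain of each dye. The spots ranged over 78.6 to 184 units in differentiated replicate 1 and 716 to 1014 units in differentiated replicate 2, against 20.9 to 35.4 units in proliferating replicate 1 and 47.9 to 110.2 units in proliferating replicate 2. In proliferating replicate 2 the dimmest spots, at 47.9 and 54.2 units, lay on either side of the limit of 53.7. The spot-to-spot SD was 31.1% and 19.1% of the mean over background in the differentiated samples and 25.9% and 46.5% in the proliferating samples.

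miR-10b gave no detected level in either stage. Its spots averaged 2.06 and 128.1 units over background in differentiated replicates 1 and 2, against 3.70 and 11.0 units in proliferating replicates 1 and 2, each below the limit of its sample. No spot passed the limit in differentiated replicate 1 or in either proliferating sample, and 2 of 5 did in differentiated replicate 2, at 215 and 174 units. Each of the 5 miR-10b spots is printed 2 rows from a miR-10a spot, and the neighbours of these 2 read 1014 and 944 units in the same sample. The other miR-10b spots there read 126, 69.0 and 55.9 units, beside miR-10a spots of 859, 716 and 718 units. Whether signal of miR-10a, which differs by 1 base, reached these spots was not tested. Because both stages were below the limit, no ratio between stages is given for miR-10b, and a change was not detectable at this signal.

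**Figure D1:**
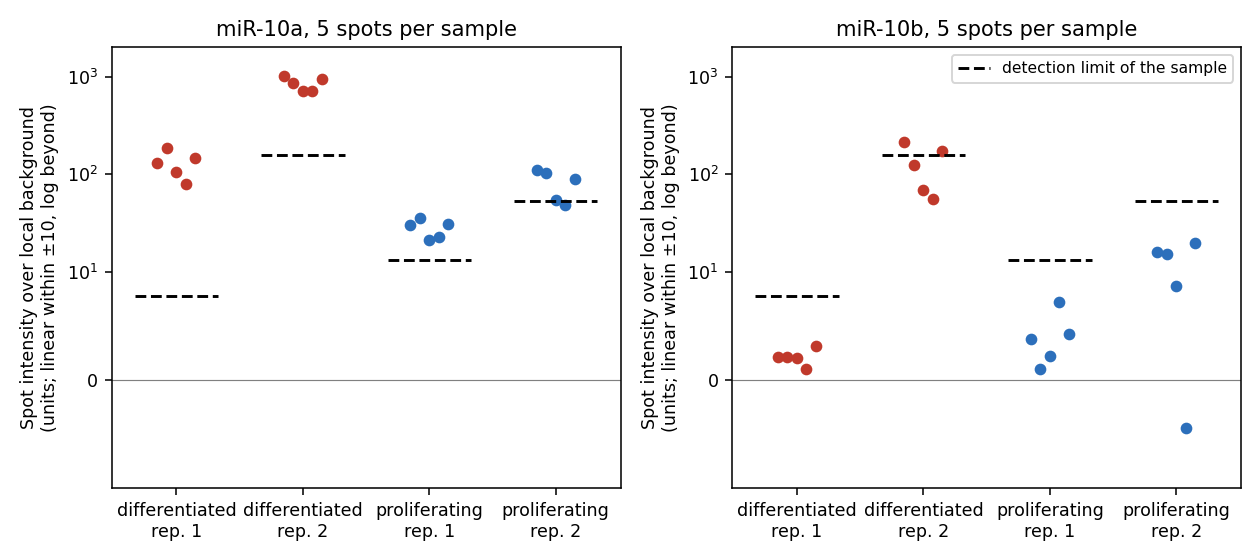
Intensity over local background of each of the 5 spots of miR-10a (left) and miR-10b (right), by sample, on an axis that is linear within ±10 units and logarithmic beyond, with each sample's detection limit dashed. miR-10a spots lie over the limit except 1 at 47.9 units in proliferating replicate 2, while 2 of the miR-10b spots do, both in differentiated replicate 2.

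After background correction and loess normalization within each array, miR-10a had log2 values of 8.25 and 8.64 in differentiated replicates 1 and 2, against 6.95 and 7.36 in proliferating replicates 1 and 2. The stages did not overlap, which held for 34.9% of the 172 tested probes in this direction. The mean log2 value was 8.44 ± 0.28 in differentiated cells and 7.15 ± 0.28 in proliferating cells (SD, n = 2 each). Differentiated over proliferating, the log2 ratio was 1.29 on array 1 and 1.28 on array 2, a mean of 1.29 ± 0.01 (SD, n = 2 arrays) or 2.44-fold. All 5 spots had a ratio above 0 on both arrays, over 0.91 to 1.61 on array 1 and 1.09 to 1.44 on array 2. In a culture measured in bulk, more cells with miR-10a and more miR-10a per cell cannot be told apart.

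The ratio of miR-10a ranked 27th from the highest among the tested probes, whose median was 0.11. miR-10a was 1 of 29 probes called higher at a limma adjusted p under 0.05, 16.9% of those tested, and 23 probes (13.4%) were called lower. Nothing is read from this call, because the member was chosen with this contrast known. Directions are relative to the bulk of miRNA probes: the 13 detected spike controls had a median log2 ratio of -1.07 on array 1 and -1.40 on array 2. Centred on those spikes, the median of the tested probes was 1.35, the miR-10a ratio 2.53, and 117 probes were called higher and 8 lower.

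The near-identity of the 2 arrays depended on the processing. With plain subtraction of the background in place of a fitted background with an offset of 50, which holds dim values together, the miR-10a log2 ratio was 2.65 on array 1 and 1.67 on array 2. In the authors' deposited table miR-10a had processed intensities of 213 and 264 in differentiated replicates 1 and 2, against 53.3 and 130.4 in proliferating replicates 1 and 2. There, too, the differentiated values were above the proliferating ones, as they were for 30.8% of the tested probes, and the log2 ratios were 2.00 on array 1 and 1.02 on array 2. The array with the differentiated sample in Cy5 gave the higher ratio in both cases. With median centring in place of loess the order turned, to 1.27 on array 1 and 2.03 on array 2. With 1 array per dye orientation, a dye effect of the probe and a difference between replicates cannot be told apart. The raw folds over background, before any normalization, were 4.59 on array 1 and 10.5 on array 2.

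**Figure D2:**
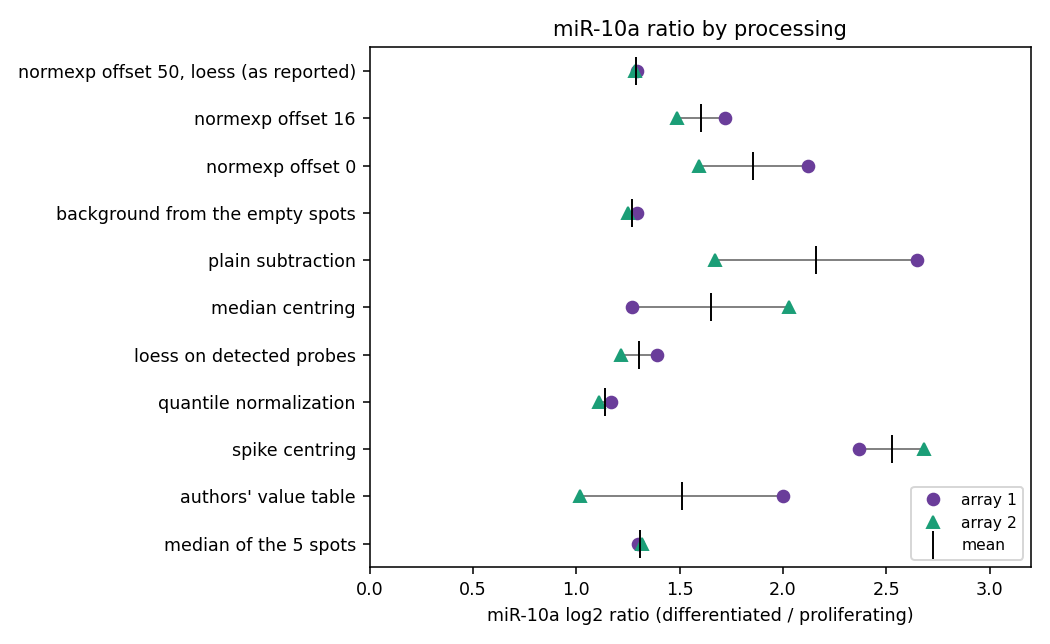
Log2 ratio of miR-10a, differentiated over proliferating, on array 1 (circles) and array 2 (triangles) with their mean (bar), for each way of processing. Every ratio is above 0, and the arrays lie closest with an offset of 50 and loess (1.29 and 1.28) and far apart with plain subtraction (2.65 and 1.67) or in the authors' table (2.00 and 1.02).

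In the authors' deposited table miR-10b had 14.8 and 39.9 intensity units in differentiated replicates 1 and 2, against 11.3 and 18.2 in proliferating replicates 1 and 2. The 466 probes undetected in all 4 samples, miR-10b among them, show the level of that table without signal. Their 95th percentile was 23.0 and 26.5 in the differentiated samples and 21.5 and 22.0 in the proliferating samples. miR-10b exceeded it in differentiated replicate 2 alone. The stages of miR-10b overlapped, since 14.8 in differentiated replicate 1 is below 18.2 in proliferating replicate 2.

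The passenger strands, cut from the other arm of the same hairpins and usually degraded, were undetected in all 4 samples, with 0 spots over the limit. They are among the 466 of 700 probes for which this held. miR-10a* averaged 1.27 and 36.9 units over background in the differentiated samples and 2.05 and -0.55 in the proliferating samples. miR-10b* averaged 0.80 and 20.7 units in the differentiated samples and 0.49 and 1.69 in the proliferating samples.

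The other miRNAs of the Hox clusters were near background as well. The list held miR-196a and miR-196b, which are known to target Hox transcripts, and miR-615, whose gene lies inside Hoxc5. Of 7 names listed, 5 matched a probe, and none was detected in both samples of a stage, so 0 were tested. Of these 5 probes, 4 were detected in no sample. Over the array, 466 of the 700 probes were detected in no sample and 172 were tested, so the counts are not read as a trait of these miRNAs. miR-196a, made from a gene of the Hoxb cluster and another of the Hoxc cluster, was detected in proliferating replicate 1 alone, with 3 of 5 spots over the limit. It averaged 3.10 and 56.6 units over background in the differentiated samples, against 15.3 and 41.9 in the proliferating samples. In the authors' deposited table it had 16.3 and 20.8 units in the differentiated samples and 29.6 and 32.7 in the proliferating samples. Both differentiated values were under the 95th percentile of undetected probes, and both proliferating values were over it (21.5 and 22.0). No comparison of stages is made, because the probe was not detected in both samples of either stage. miR-196b had 7.40 and 12.1 units in the differentiated samples and 9.38 and 14.5 in the proliferating samples of that table, all under the same level. Among miR-196a*, miR-615-3p and miR-615-5p, the single value over it was 25.2 for miR-615-3p in proliferating replicate 1. miR-10a was therefore the single Hox cluster miRNA detected in both samples of a stage on these arrays.

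**Figure D3:**
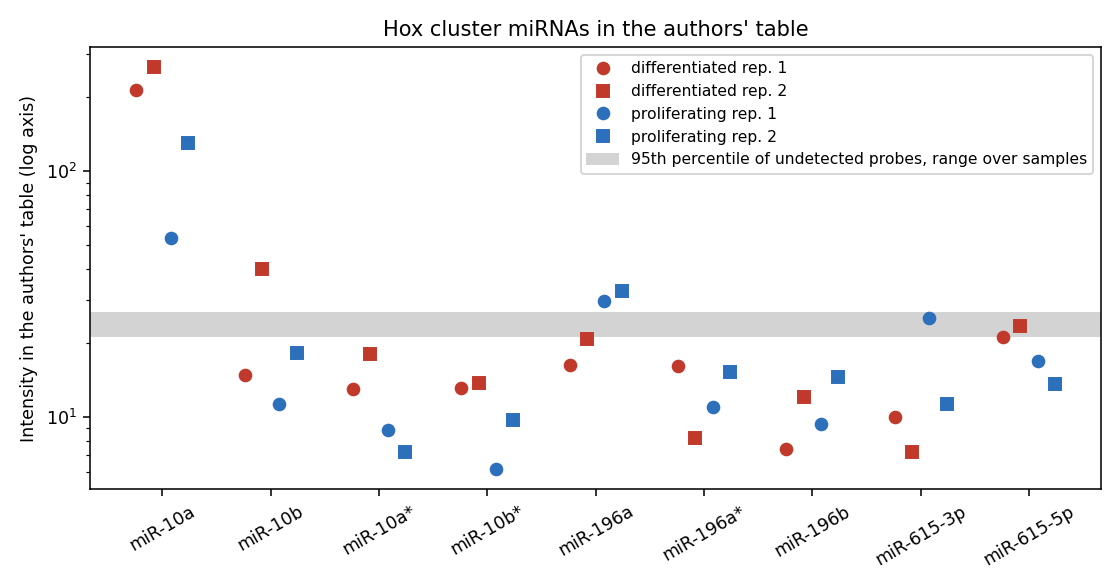
Processed intensity in the authors' table, on a log axis, of the 9 Hox cluster probes in each sample (differentiated in red, proliferating in blue; circles replicate 1, squares replicate 2), with the 95th percentile of undetected probes as a grey band (21.5 to 26.5). miR-10a lies above the band in every sample, at 213 and 264 against 53.3 and 130.4. miR-196a lies above it in both proliferating samples (29.6 and 32.7) and miR-10b in differentiated replicate 2 (39.9).

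miR-99 and miR-100 belong with miR-10 to an ancient miRNA family, and miR-125 is encoded near them in the genome. All 5 of their probes were detected in all 4 samples. None was called in the limma fit, against 16.9% of tested probes called higher and 13.4% lower; at an unadjusted p under 0.05, 1 of the 5 was higher and 1 lower, beside 22.7% and 22.1% of the tested probes. Their median log2 ratio was 0.53, beside 0.11 over all tested probes.

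miR-100, 3 edits from miR-10a, averaged 18.7 and 1460 units over background in the differentiated samples, against 38.3 and 193 in the proliferating samples. Its log2 ratio was -0.16 on array 1 and 1.11 on array 2, a mean of 0.48 ± 0.90 (SD, n = 2 arrays). The sign thus differed between arrays where that of miR-10a did not. On array 1 the spot-to-spot SD of miR-100 was 43.0% and 37.9% of the differentiated and proliferating means over background. In the authors' deposited table its ratios were -0.28 and 1.05, beside 2.00 and 1.02 for miR-10a. On array 2 of that table miR-100 was therefore not below miR-10a. miR-99a, 4 edits away, averaged 933 and 4435 units in the differentiated samples, against 658 and 861 in the proliferating samples. Its log2 ratios of 0.43 and 0.84 were both above 0 and below those of miR-10a. miR-99b, 6 edits away, averaged 1361 and 4160 units in the differentiated samples, against 4607 and 3109 in the proliferating samples. Its ratios of -1.96 and -1.004 ran the other way from miR-10a on both arrays (mean -1.48 ± 0.68). miR-125a-5p and miR-125b-5p, of another seed, had mean ratios of 0.70 ± 0.14 and 0.53 ± 0.17. The share of relatives' signal on the miR-10a probe was not tested.

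**Figure D4:**
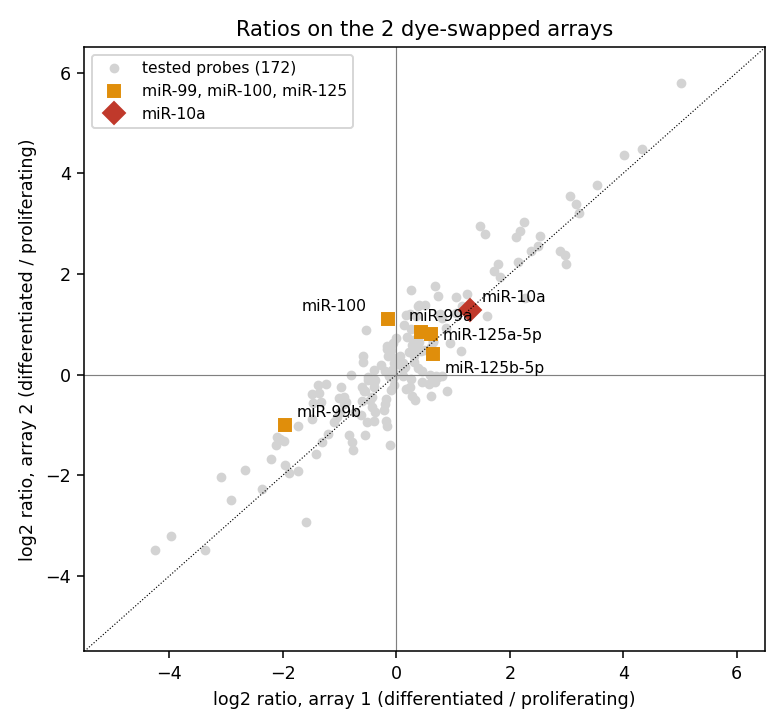
Log2 ratio of differentiated over proliferating cells on array 1 against array 2 for the 172 tested probes (grey), the 5 relatives (squares) and miR-10a (diamond); the dotted line marks equal ratios. miR-10a lies on the line at 1.29 and 1.28, above all 5 relatives on both axes, and miR-99b is below 0 on both.

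The difference between arrays was 0.01 for miR-10a, and 5 of the other 171 tested probes had a smaller one; the median was 0.42. Probes whose 4 normalized log2 values followed miR-10a most closely were found by Euclidean distance after each probe's own mean was removed. The closest over the 4 samples were miR-30c at a distance of 0.21, miR-152 at 0.28 and let-7g at 0.34. miR-30c had log2 ratios of 1.06 and 1.23 on arrays 1 and 2, miR-152 had 1.16 and 1.36, and let-7g had 1.60 and 1.17. In the proliferating samples miR-152 had log2 values of 6.61 and 6.65. The mesenchymal probe miR-214, undetected there, had 6.59 and 6.65. The part of this low level in the likeness of miR-152 to miR-10a was not tested. In the authors' deposited table the same ratios were 1.27 and 1.11 for miR-30c, 2.81 and 1.42 for miR-152 and 1.68 and 1.09 for let-7g. The likeness is over 4 samples on 2 arrays and is a description only.

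Markers of the labelled cell type were present in both stages. Of 6 epithelial miRNAs (the miR-200 family and miR-205), 5 were detected in each differentiated sample and 4 in each proliferating sample, and miR-141 in none. The probe detected in the differentiated samples alone was miR-200c. Summed intensity of the list in the authors' table was 19699 to 21301 in differentiated cells and 7314 to 7644 in proliferating cells. Its members did not move alike. Mean log2 ratios were 3.65 for miR-200a, 2.67 for miR-200b, 1.43 for miR-429 and 0.75 for miR-200c. For miR-205 the ratios were -0.17 on array 1 and 0.57 on array 2. Neither of 2 endothelial probes and none of 5 blood probes was detected. Of 5 fibroblast and mesenchyme probes, miR-143 and miR-145 were detected in both differentiated samples and in neither proliferating one, with list sums of 216 to 319 and 86.7 to 91.2. Of 4 muscle probes, miR-206 was detected in 1 differentiated and both proliferating samples, with list sums of 71.9 to 85.6 and 192 to 197. The part of other cell types in the miR-10a difference was not tested.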

How the data were processed

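Total RNA of HC11 cells was size-selected, poly(A)-tailed and tagged for dye staining by a service provider, per the labels' protocols. The authors deposited scanner tables of mean spot intensity and its SD, with background and unnormalized per the file headers, and a table of processed intensity whose scale and centring are unknown (medians 15.1 and 14.0 in the differentiated and 13.9 and 13.6 in the proliferating samples). The sources used here name no image software. The members and lists were chosen with earlier results of these data known.

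Local background was the 20th percentile of spots within 7 rows and columns. It was corrected by normexp (offset 50) in limma 3.58.1 under R 4.3.3, followed by loess (span 0.3, controls at weight 0), and the 5 spots were averaged. Sample levels followed Aquantile scaling. The 172 probes that both samples of a stage detected, in either stage, had their log2 ratio fitted with limma's lmFit and eBayes, two-sided, with Benjamini-Hochberg adjustment. The offset understates ratios of dim probes. The code was tested on simulated data. Same-numbered samples were taken as 1 array: their empty spots correlated at 0.515 and 0.907, against 0.204 to 0.391 for other pairs. Their deviations from stage means correlated at 0.343. That value cannot bear on the pairing, because it comes from values normalized with the pairing already assumed. Named probes were the members, the lists and the 3 nearest in pattern to miR-10a; none were sought for miR-10b, which lay below its limit. Sequences were matched to RefSeq (GRCm38.p6) by identity, for 538 of 700 probes; the sources used here name no build for the array, and neighbouring genes come from a RefSeq table of the same assembly.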

Additional observations from a re-analysis of the deposited data

How the results depend on the processing

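The miR-10a log2 ratio was above 0 in all 13 alternatives, and on both arrays in each of the 10 that kept both. The alternatives outside these 10 restate the reported array ratios or their mean, so their direction was fixed in advance. Within the 10, the direction was also fixed for the median of the spots, since all 5 spots were above 0 on both arrays. It was fixed for spike centring too, which subtracts spike medians of -1.07 and -1.40 and so could only raise the ratios. Against 1.29 as reported, it was 1.60 with offset 16, 1.65 with median centring, 2.16 with plain subtraction, 1.14 with quantile normalization, 1.30 with loess on detected probes, 2.53 with spike centring, 1.51 in the authors' table and 1.31 with the median of the spots. Offset 0 (1.86) and a background from the empty spots (1.27) were chosen after seeing the data. Leaving out 1 array gave 1.28 to 1.29, a value with no test, and no replicate block gave 1.29. Probes called higher and lower, 29 and 23 as reported (55.8% higher), numbered 46 and 43 with offset 16, 51 and 45 with offset 0, 47 and 13 with median centring, 48 and 37 with plain subtraction, 54 and 45 with quantile normalization, 54 and 41 with loess on detected probes, 48 and 56 in the authors' table, and 117 and 8 (93.6% higher) with spike centring. With no filter 13 were lower, and among probes detected in all 4 samples 18 were higher; fewer or more probes were then tested. For the other settings the cause was not tested. With no replicate block 32 were higher and 27 lower, and leaving out each sample of that fit, with the single sample left in a stage assumed to have the spread of the opposite stage, left 26 to 40 called higher and 21 to 32 called lower. At 2 SDs, or with 1 spot over the limit, 2 members were detected in differentiated replicate 2 in place of 1, and 1 in every other sample as before. No alternative was computed for a miR-10b ratio or its difference from miR-10a, because miR-10b was below the limit in both stages. Signal over background limits miR-10b, the passenger strands and the other Hox cluster miRNAs.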
